A study of Mus musculus with 20 samples.

Results

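The 60 genes described here run and control the cell cycle: they copy the DNA, supply its building blocks, drive cells from one phase to the next, restrain that drive, or segregate the chromosomes in mitosis. They were taken by mouse gene symbol from a list of known cell cycle genes and are 60 of the 17104 genes that carry an identifier in at least 1 of 3 deposited tables. All 60 were listed in every table. They were divided by known role into 11 replication genes, 3 genes of nucleotide synthesis, 8 G1 cyclins and kinases, 7 genes of the step from S phase to mitosis, 5 Cdkn genes, 6 genes of transcriptional control and 20 mitosis genes.

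The genes were measured by RNA-seq in tumor cells of MycCaP-Bo, a mouse prostate cancer line, sorted as CD45- iRFP+ cells from bone lesions of mice injected at 4 to 6 weeks of age. The line was derived from MycCaP, which came from a tumor of the Myc-driven HiMyc model in FVB mice, and was enriched for bone homing by repeated passage through mice, so all groups share one selected, Myc-driven origin. Each of the 4 groups had 5 libraries, and each library was made from cells of 3 pooled mice. Naive tumors had received vehicle. Resist tumors had received enzalutamide, an antiandrogen, at 30 mg/kg for 18 days. Resist-Mac tumors had received the same and, in the last 4 days, clodronate liposomes at 1 mg per mouse, which deplete macrophages. Naive-Mac tumors had received vehicle and clodronate liposomes for 4 days. Resist vs. Naive asks how the tumor cells differ after long enzalutamide treatment, and the comparisons with the -Mac groups ask what differs when macrophages are depleted.

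In G1, D-type cyclins with Cdk4 or Cdk6, and then E-type cyclins with Cdk2, phosphorylate the retinoblastoma protein and so release E2F factors, which switch on genes of replication and nucleotide synthesis. Later, Foxm1 and Mybl2 act on promoters of G2 and mitosis genes, and Cdk1 with A-type and B-type cyclins drives entry into mitosis. The inhibitors encoded by Cdkn genes hold the kinases back, and in prostate cells androgens are known to promote the passage through G1.

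Expression was given as FPKM, the number of fragments per kilobase of transcript mapped, scaled to the size of the library, so levels can be compared between genes on that scale. Naive and Resist libraries share 1 table and 1 batch, whereas Resist-Mac and Naive-Mac libraries each have a table and a batch of their own. Only Resist vs. Naive was therefore tested, with limma on log2(FPKM + 1) over the 10119 genes whose mean was 1 FPKM or more. To be called, a gene had to change over 1.5-fold and to have an adjusted p (Benjamini-Hochberg) under 0.05. Without read counts in the tables, sequencing depth is unknown. Genes above 0 numbered 13062 to 14056 in naive and Resist libraries, 12105 to 13053 in Resist-Mac and 12087 to 12740 in Naive-Mac libraries. The labels do not say whether the pools of a group came from separate experiments, so p-values measure the spread between these libraries. Of the markers of prostate epithelium, Krt8 was at 84.8 to 408 FPKM over the 20 libraries, but the epithelial genes Krt18 and Cdh1 were at 0.230 FPKM or less, and both were listed at 0 in every Naive-Mac library.

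Blood cell transcripts varied between libraries. The summed level of 12 neutrophil markers, led by S100a8 and S100a9, was 177 to 1277 FPKM in naive, 61.9 to 607 in Resist, 407 to 8812 in Resist-Mac and 59.5 to 6182 in Naive-Mac libraries, with none of the 12 at 0 in every library of a group. Of 10 listed erythroid markers, 8 were in the first table, with Hbb-bt at 0, and summed to 54.1 to 108 FPKM in naive and 107 to 200 in Resist libraries, and those in the other tables summed to 131 to 311 in Resist-Mac and 214 to 954 in Naive-Mac libraries. Macrophage markers summed to 8.96 to 25.6 FPKM in naive and 10.1 to 21.6 in Resist libraries. In Resist-Mac libraries they summed to 8.03 to 86.2 FPKM and in Naive-Mac libraries to 2.87 to 23.9. By mean level Cd14 led this sum in every group but Resist, where Mertk did. Adgre1, another of these markers, was at 0.520 FPKM or less in all 20 libraries. B cell and endothelial markers summed to 8.47 FPKM or less in all 20 libraries. Osteoblast and stromal markers summed to 11.1 to 16.4 FPKM in naive, 11.6 to 35.5 in Resist, 5.54 to 14.9 in Resist-Mac and 2.86 to 4.02 in Naive-Mac libraries, with Bglap and Sp7 at 0 in naive and Bglap at 0 in Naive-Mac. The part of these cell types in the results below was not tested. In bulk RNA, fewer cells of a type and less RNA per cell cannot be told apart. In Resist replicate 5 the replication genes were, at the median, near the naive level, unlike in the other Resist libraries, so those results are given with and without it. Replicate 5 was thus singled out by these genes, and results without it are no separate support for a fall in them. By Dixon's test it was far from the other Resist libraries in Ccne1, Mad2l1 and Rb1 and in 0 of the 11 replication genes. Its label was not checked independently, and its Cdkn2c and E2f2 levels lay outside the naive range on the same side as those of the other Resist libraries. It held 225 FPKM of neutrophil and 182 FPKM of erythroid markers, within the range of the other Resist libraries, whereas its osteoblast and stromal markers, at 35.5 FPKM, summed above those of every other Resist library.

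Promoters of replication and mitosis genes differed in the motifs they held, and some are shown because these classes are set side by side in Resist vs. Naive. RefSeq windows of the GRCm38.p6 assembly, from 250 bases before to 50 after the start, were found for 48 of the 60 genes, 56 windows in all. An E2F motif (TTTGGCGC, TTTCCCGC, TTTCGCGC or TTTGCCGC on either strand) was in 6 of the 10 replication windows (60%), 0 of the 18 mitosis windows and 2.26% of all 32851 windows. The cell cycle homology region, or CHR (TTTGAA or TTCGAA on either strand), was in 14 of the 18 mitosis windows (77.8%), 3 of the 10 replication windows (30.0%) and 19.2% of all windows. CCAAT on either strand was in 69.6% of the windows of these genes and 37.4% of all windows. In 0 windows did an E2F match overlap a CHR match, and in 1 of the 56 it overlapped a CCAAT match. A match is a run of letters and not a binding site, and some genes have more than 1 window.

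Mcm3 (chr1:20820263-20820562, minus strand), Mcm5 (chr8:75109259-75109558, plus strand) and Mcm6 (chr1:128359656-128359955, minus strand), subunits of the replicative helicase, are shown with their E2F matches in capitals, some of which overlap each other.
Mcm3: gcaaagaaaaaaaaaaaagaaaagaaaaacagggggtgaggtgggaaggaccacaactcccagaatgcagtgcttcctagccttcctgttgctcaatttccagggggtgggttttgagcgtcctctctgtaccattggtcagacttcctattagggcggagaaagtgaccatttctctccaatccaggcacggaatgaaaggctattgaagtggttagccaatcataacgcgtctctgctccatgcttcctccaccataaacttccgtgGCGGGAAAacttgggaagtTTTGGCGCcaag
Mcm5: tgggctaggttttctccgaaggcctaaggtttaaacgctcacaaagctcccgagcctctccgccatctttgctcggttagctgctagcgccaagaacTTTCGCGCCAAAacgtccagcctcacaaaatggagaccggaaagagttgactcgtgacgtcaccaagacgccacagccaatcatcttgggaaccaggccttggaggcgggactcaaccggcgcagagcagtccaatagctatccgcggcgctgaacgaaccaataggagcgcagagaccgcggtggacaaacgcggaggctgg
Mcm6: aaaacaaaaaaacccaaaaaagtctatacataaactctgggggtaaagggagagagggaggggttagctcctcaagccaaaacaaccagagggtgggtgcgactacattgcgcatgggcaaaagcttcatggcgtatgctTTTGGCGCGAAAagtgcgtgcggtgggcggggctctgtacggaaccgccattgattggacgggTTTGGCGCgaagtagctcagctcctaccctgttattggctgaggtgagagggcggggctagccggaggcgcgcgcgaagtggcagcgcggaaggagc

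Mki67 (chr7:135716330-135716629, minus strand) and Top2a (chr11:99024140-99024439, minus strand), with 2 and 4 CHR matches and 0 E2F matches, are shown with the CHR matches in capitals.
Mki67: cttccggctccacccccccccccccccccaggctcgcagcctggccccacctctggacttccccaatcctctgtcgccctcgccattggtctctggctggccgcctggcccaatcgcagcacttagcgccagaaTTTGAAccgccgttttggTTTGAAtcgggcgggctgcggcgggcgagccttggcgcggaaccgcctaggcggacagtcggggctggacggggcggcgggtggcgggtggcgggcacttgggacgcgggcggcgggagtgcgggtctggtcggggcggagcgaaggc
Top2a: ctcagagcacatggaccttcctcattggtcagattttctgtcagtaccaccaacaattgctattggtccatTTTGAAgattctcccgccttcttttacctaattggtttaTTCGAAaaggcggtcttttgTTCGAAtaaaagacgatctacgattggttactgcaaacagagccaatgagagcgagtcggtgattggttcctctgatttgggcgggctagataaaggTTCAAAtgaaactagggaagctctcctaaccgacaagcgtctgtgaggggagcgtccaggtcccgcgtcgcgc

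Cdkn2c (chr4:109665323-109665622, minus strand) and E2f2 (chr4:136172024-136172323, plus strand) are shown because they were the genes called in Resist vs. Naive, each by the one of its 2 windows with the lower coordinate. The other Cdkn2c window held 0 E2F, 0 CHR and 0 CCAAT matches. The other E2f2 window held 0 E2F, 1 CHR and 3 CCAAT matches. The Cdkn2c window shown held 0 E2F and 0 CHR matches and has its CCAAT match in capitals, and the E2f2 window shown has its E2F match in capitals.
Cdkn2c: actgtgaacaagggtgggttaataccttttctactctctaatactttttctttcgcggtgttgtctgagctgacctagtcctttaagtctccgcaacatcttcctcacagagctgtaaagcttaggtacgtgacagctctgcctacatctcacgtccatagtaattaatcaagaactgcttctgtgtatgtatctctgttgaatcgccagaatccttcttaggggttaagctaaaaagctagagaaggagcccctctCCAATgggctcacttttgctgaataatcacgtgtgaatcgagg
E2f2: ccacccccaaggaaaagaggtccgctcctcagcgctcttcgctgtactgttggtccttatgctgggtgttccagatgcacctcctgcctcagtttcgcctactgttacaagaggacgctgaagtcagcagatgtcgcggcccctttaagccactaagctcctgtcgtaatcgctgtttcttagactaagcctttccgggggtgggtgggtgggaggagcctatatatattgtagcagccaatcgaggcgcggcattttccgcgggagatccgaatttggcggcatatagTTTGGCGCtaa

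In Resist vs. Naive, 2 of the 59 tested cell cycle genes were called. Cdkn2c, an inhibitor of Cdk4 and Cdk6, rose, and E2f2, a transcription factor of the S phase program, fell. Calls among all genes tested were 6.35%, or 5.25% higher and 1.11% lower, so 2 of 59 is no more than the background. At adjusted p under 0.05 alone, without the fold threshold, 2 genes were higher and 10 lower, 12 in all, against 12.5% higher, 6.40% lower and 18.9% in all among all genes. The 10 were Bub1, Ccna2, Cdkn1a, Cdt1, E2f2, Mcm3, Mcm6, Mcm7, Mybl2 and Pcna, and the 2 were Ccnd1 and Cdkn2c. The median difference of the 59 genes was -0.06 on the log2(FPKM + 1) scale, beside 0.03 for all genes. The gene not tested was Ccnd2, a D-type cyclin, at 0 to 0.08 FPKM in naive and Resist libraries.

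**Figure D1:**
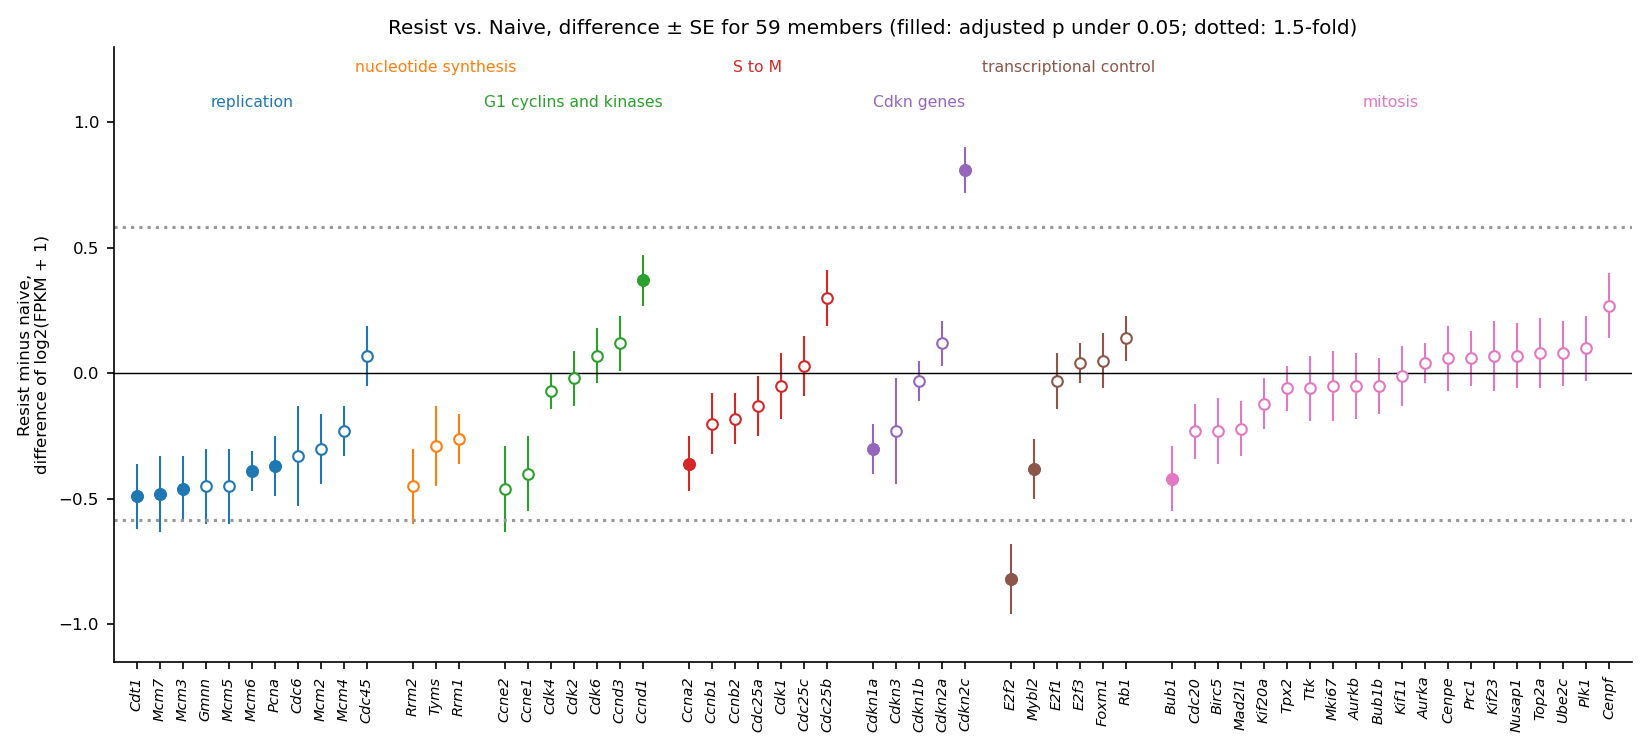
Difference of mean log2(FPKM + 1), Resist minus naive, with its SE (vertical axis) for 59 genes grouped by role (horizontal axis), n = 5 libraries per group. Filled points passed adjusted p under 0.05 in limma, dotted lines mark 1.5-fold, and only Cdkn2c at 0.81 and E2f2 at -0.82 lie beyond them.

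Replication genes were lower in 4 of the 5 Resist libraries and at the naive level in the fifth. Of the 11 genes, 10 had a difference below 0, beside 4446 of all 10119 genes tested. By limma 5 of the 11 were lower at adjusted p under 0.05, against 6.40% of all genes, and 0 were called. Their median difference was -0.39, beside -0.03 for the mitosis genes and 0.03 for all genes, and it stayed below 0 under every alternative scaling and filter tried. Cdt1, which loads the helicase onto replication origins, was at 23.0, 24.6, 22.9, 20.5 and 20.9 FPKM in naive replicates 1 to 5 and 13.7, 12.2, 17.7, 14.04 and 21.9 FPKM in Resist replicates 1 to 5. All Resist libraries but replicate 5 lay below every naive library. The difference was -0.49 ± 0.13 (SE, n = 5 per group), with adjusted p = 0.0215 by limma.

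Mcm3 was at 37.6, 33.8, 37.0, 33.0 and 31.4 FPKM in naive replicates 1 to 5 and 19.7, 22.0, 27.9, 22.5 and 34.7 FPKM in Resist replicates 1 to 5. Its difference was -0.46 ± 0.13 (SE, n = 5 per group), with limma adjusted p = 0.0288, and the groups overlapped through Resist replicate 5. Mcm6, another helicase subunit, was at 52.3, 58.2, 53.3, 49.0 and 48.1 FPKM in naive replicates 1 to 5 and 34.6, 38.6, 40.4, 37.8 and 47.2 FPKM in Resist replicates 1 to 5. Here the groups did not overlap, as for 4.34% of all genes in this direction, and the difference was -0.39 ± 0.08 (SE, n = 5 per group), with limma adjusted p = 0.00776. Mcm7 was at 86.7, 81.6, 74.2, 70.5 and 73.2 FPKM in naive replicates 1 to 5 and 47.8, 43.6, 64.1, 45.2 and 82.2 FPKM in Resist replicates 1 to 5. Resist replicate 5 lay among the naive libraries and the other 4 below them, with a difference of -0.48 ± 0.15 (SE, n = 5 per group) and limma adjusted p = 0.0458. Pcna, the sliding clamp of the DNA polymerases, was at 140.4, 118, 149, 118 and 115 FPKM in naive replicates 1 to 5 and 89.3, 86.3, 102, 89.8 and 131 FPKM in Resist replicates 1 to 5. The difference was -0.37 ± 0.12 (SE, n = 5 per group), with limma adjusted p = 0.0461, and again 4 of the 5 Resist libraries lay below all naive libraries.

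Mcm2 and Mcm5 did not pass the test. Mcm2 was at 37.7, 41.6, 36.2, 37.8 and 31.1 FPKM in naive replicates 1 to 5 and 26.5, 23.1, 33.8, 26.3 and 42.4 FPKM in Resist replicates 1 to 5, a difference of -0.30 ± 0.14 (SE, n = 5 per group) with limma adjusted p = 0.160. Mcm5 was at 41.6, 40.9, 40.5, 36.7 and 35.4 FPKM in naive replicates 1 to 5 and 23.1, 22.6, 32.5, 25.1 and 42.5 FPKM in Resist replicates 1 to 5, a difference of -0.45 ± 0.15 (SE, n = 5 per group) with limma adjusted p = 0.0543. In both, replicate 5 was the highest Resist library and also exceeded every naive library. Mcm4, Cdc6, which loads the helicase together with Cdt1, and Gmnn, which blocks Cdt1, had differences of -0.23, -0.33 and -0.45 with limma adjusted p of 0.136, 0.273 and 0.0520. Cdc45, which joins the helicase when origins fire, was the exception at 0.07 (limma adjusted p = 0.699).

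Without Resist replicate 5, 9 of the 11 replication genes were lower at adjusted p under 0.05 by limma, against 9.93% of all genes, and 4 were called lower, against 1.55%, namely Cdt1, Gmnn, Mcm5 and Mcm7. Their median difference was then -0.48. Replicate 5 was singled out by the level of these same genes, so a larger number without it follows at least in part from that choice. With Resist replicate 5 kept, leaving out naive replicates 1 to 5 in turn left 1, 1, 2, 3 and 3 replication genes lower at adjusted p under 0.05, and leaving out Resist replicates 1 to 4 left 2, 2, 3 and 1. Measured against the naive mean, the median log2 level of the replication genes was -0.65, -0.56, -0.26, -0.57 and 0.09 in Resist replicates 1 to 5 and -0.13 to 0.08 in naive libraries.

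**Figure D2:**
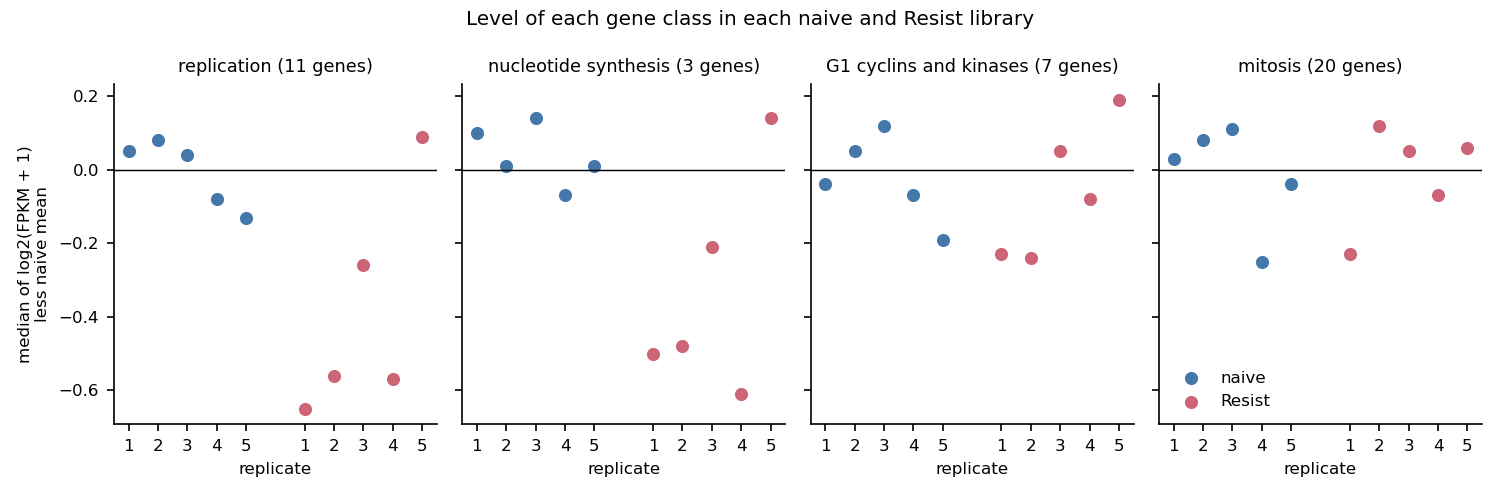
Median over the genes of a class of log2(FPKM + 1) less its naive mean (vertical axis) in each naive and Resist library (horizontal axis, replicate number), with 1 point per library. For replication, Resist replicates 1 to 4 lie at -0.65 to -0.26 and replicate 5 at 0.09, whereas naive and Resist libraries overlap for mitosis genes.

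In nucleotide synthesis, too, Resist replicate 5 was the highest Resist library for all 3 genes. Rrm1 and Rrm2, the subunits of ribonucleotide reductase, and Tyms, which makes thymidylate, had differences of -0.26 ± 0.10 (SE, n = 5 per group), -0.45 ± 0.15 (SE, n = 5 per group) and -0.29 ± 0.16 (SE, n = 5 per group), with limma adjusted p of 0.0737, 0.0543 and 0.227. None of the 3 passed the test, and their median was -0.29. Rrm2 was at 117, 104, 115, 90.5 and 92.4 FPKM in naive replicates 1 to 5 and 59.02, 70.6, 76.5, 67.3 and 114 FPKM in Resist replicates 1 to 5. Its replicate 5 lay within the naive range and the other Resist libraries below it. Without that library all 3 were lower at adjusted p under 0.05 by limma, against 9.93% of all genes, and Rrm2 was called (difference -0.59, adjusted p = 0.00146), against 1.55% called lower. As replicate 5 was the highest Resist library for these genes, this is no separate support.

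Of the 7 G1 cyclins and kinases tested, 1 was higher at adjusted p under 0.05, near the share of 12.5% among all genes, 0 were lower and 0 called, and the median was -0.02. The gene that passed was the D-type cyclin Ccnd1. It was at 59.5, 59.5, 72.8, 63.9 and 52.97 FPKM in naive replicates 1 to 5 and 94.8, 76.0, 69.1, 82.2 and 77.8 FPKM in Resist replicates 1 to 5. The groups overlapped, and the difference was 0.37 ± 0.10 (SE, n = 5 per group), with limma adjusted p = 0.0201. Ccne1, which activates Cdk2 at the entry into S phase, was at 11.7, 11.02, 12.4, 8.67 and 7.51 FPKM in naive replicates 1 to 5 and 6.94, 6.15, 7.18, 6.74 and 10.7 FPKM in Resist replicates 1 to 5. Replicate 5 was again the highest Resist library, with the other 4 below all naive libraries, and the difference was -0.40 ± 0.15 (SE, n = 5 per group) with limma adjusted p = 0.0850. Ccne2 had a difference of -0.46 (limma adjusted p = 0.0743), and without Resist replicate 5 it was called at -0.60 (adjusted p = 0.0108). Replicate 5 was the highest Resist library for Ccne2 too, at 7.94 FPKM, so this call is no separate support. The differences of Ccnd3 and of the kinases Cdk2, Cdk4 and Cdk6 were 0.12, -0.02, -0.07 and 0.07, with limma adjusted p of 0.502, 0.940, 0.468 and 0.70. Ccnd2 was at 0.08, 0.08, 0, 0 and 0.03 FPKM in naive replicates 1 to 5 and 0, 0.01, 0.03, 0.06 and 0.04 FPKM in Resist replicates 1 to 5, so Ccnd1 and Ccnd3 were the D-type cyclins with appreciable levels.

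Of the 7 genes that carry cells from S phase into mitosis, 1 was lower at adjusted p under 0.05, against 6.40% of all genes, 0 were called, and the median was -0.13. This was Ccna2, the A-type cyclin, with 26.6 to 31.1 FPKM in naive and 17.7 to 27.4 FPKM in Resist libraries and a difference of -0.36 ± 0.11 (SE, n = 5 per group) (limma adjusted p = 0.0403). Cdk1, the kinase of mitotic entry, was at 8.12, 6.42, 6.04, 6.17 and 7.21 FPKM in naive replicates 1 to 5 and 6.23, 6.89, 5.93, 5.06 and 8.94 FPKM in Resist replicates 1 to 5. Resist libraries lay on both sides of the naive ones, and the difference was -0.05 ± 0.13 (SE, n = 5 per group) with limma adjusted p = 0.823. Ccnb1, its B-type cyclin, was at 14.2, 13.6, 15.3, 10.6 and 15.4 FPKM in naive replicates 1 to 5 and 11.4, 14.2, 13.0, 9.06 and 12.1 FPKM in Resist replicates 1 to 5. The groups overlapped here too, with a difference of -0.20 ± 0.12 (SE, n = 5 per group) and limma adjusted p = 0.278. Ccnb2 and the phosphatases Cdc25a, Cdc25b and Cdc25c, which remove inhibitory phosphates from the kinases, had differences of -0.18, -0.13, 0.30 and 0.03, with limma adjusted p of 0.242, 0.457, 0.0723 and 0.904.

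The Cdkn genes did not move together. Cdkn2c, which encodes p18, was at 16.4, 16.8, 15.1, 16.1 and 14.7 FPKM in naive replicates 1 to 5 and 31.9, 28.8, 30.2, 29.5 and 22.9 FPKM in Resist replicates 1 to 5. Every Resist library lay above every naive library, as for 8.45% of all genes in this direction, and Resist replicate 5 was the lowest of the 5. The difference was 0.81 ± 0.09 (SE, n = 5 per group), with adjusted p = 0.000175 by limma, and over the alternative settings that gave one the adjusted p ran from 1.87e-05 to 0.00102. Cdkn1a, which encodes the p53 target p21, was at 82.3, 84.2, 82.0, 86.8 and 76.6 FPKM in naive replicates 1 to 5 and 56.5, 72.1, 71.5, 80.9 and 56.7 FPKM in Resist replicates 1 to 5. Only Resist replicate 4 lay within the naive range and the other 4 below it, and the difference was -0.30 ± 0.10 (SE, n = 5 per group) with limma adjusted p = 0.0493. Without Resist replicate 5 it was -0.24, with limma adjusted p = 0.0744. Cdkn1b, which encodes p27, was at 39.8, 34.7, 31.7, 36.8 and 41.4 FPKM in naive replicates 1 to 5 and 33.0, 35.7, 40.9, 33.0 and 37.4 FPKM in Resist replicates 1 to 5, a difference of -0.03 ± 0.08 (SE, n = 5 per group) with limma adjusted p = 0.819. Cdkn2a, whose alternative products p16Ink4a and p19Arf were measured as 1 gene, was at 153, 144, 145, 149 and 152 FPKM in naive replicates 1 to 5 and 186, 124, 178, 159 and 169 FPKM in Resist replicates 1 to 5. Its Resist libraries lay on both sides of the naive ones, with a difference of 0.12 ± 0.09 (SE, n = 5 per group) and limma adjusted p = 0.384. Cdkn3, a phosphatase that acts on Cdk proteins, had a difference of -0.23 (limma adjusted p = 0.464).

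Of the 6 genes of transcriptional control, 2 were lower at adjusted p under 0.05, against 6.40% of all genes, 1 of them was called, against 1.11%, and the median was 0.01. E2f2 was at 12.1, 10.5, 11.1, 12.6 and 10.8 FPKM in naive replicates 1 to 5 and 8.13, 4.28, 5.24, 5.54 and 7.75 FPKM in Resist replicates 1 to 5. All Resist libraries lay below all naive libraries, and the difference was -0.82 ± 0.14 (SE, n = 5 per group), with adjusted p = 0.00242 by limma and 0.000906 to 0.00932 over the alternative settings that gave one. By the noise-distribution probability, which gives no adjusted p, E2f2 was not called, at 0.797 against a threshold of 0.8. E2f1, another activator of the same family, was at 6.31, 7.53, 7.88, 7.98 and 8.62 FPKM in naive replicates 1 to 5 and 7.23, 5.86, 8.53, 7.33 and 8.64 FPKM in Resist replicates 1 to 5. The groups overlapped, and the difference was -0.03 ± 0.11 (SE, n = 5 per group) with limma adjusted p = 0.873. E2f3 had a difference of 0.04 (limma adjusted p = 0.756), so E2f2 was the E2F activator that passed the test. Mybl2 was lower at adjusted p under 0.05, with 8.05 to 9.11 FPKM in naive and 5.17 to 8.5 FPKM in Resist libraries and a difference of -0.38 ± 0.12 (SE, n = 5 per group) (limma adjusted p = 0.0442). Foxm1 was at 5.09, 5.53, 5.37, 3.76 and 4.46 FPKM in naive replicates 1 to 5 and 4.24, 6.05, 4.94, 4.62 and 5.29 FPKM in Resist replicates 1 to 5, a difference of 0.05 ± 0.11 (SE, n = 5 per group) with limma adjusted p = 0.795. Rb1, the retinoblastoma gene, was at 3.81, 3.91, 3.32, 3.60 and 2.87 FPKM in naive replicates 1 to 5 and 4.08, 4.01, 3.97, 4.12 and 3.57 FPKM in Resist replicates 1 to 5, a difference of 0.14 ± 0.09 (SE, n = 5 per group) with limma adjusted p = 0.286.

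Mitosis genes overlapped between the groups. Of the 20, 11 had a difference below 0 and 9 above, beside 4446 below and 5673 above among all 10119 genes tested. At adjusted p under 0.05, 1 was lower and 0 higher, where 6.40% of all genes were lower and 12.5% higher. Of the 20, 0 were called, and the median was -0.03. Leaving out 1 library at a time moved this median between -0.06 and 0.06, so its sign was not settled. Bub1, a kinase of the spindle checkpoint, was the gene that passed, with 5.09 to 8.14 FPKM in naive and 4.00 to 6.16 FPKM in Resist libraries and a difference of -0.42 ± 0.13 (SE, n = 5 per group) (limma adjusted p = 0.0450). Mki67, the proliferation antigen that coats mitotic chromosomes, was at 14.6, 14.6, 19.5, 12.4 and 14.3 FPKM in naive replicates 1 to 5 and 9.63, 15.2, 16.6, 15.6 and 15.9 FPKM in Resist replicates 1 to 5. Resist replicate 1 was below the rest and the other Resist libraries within the naive range, with a difference of -0.05 ± 0.14 (SE, n = 5 per group) and limma adjusted p = 0.831. Top2a, which untangles sister chromatids, was at 15.6, 14.4, 14.8, 12.6 and 11.6 FPKM in naive replicates 1 to 5 and 10.2, 15.9, 16.6, 13.3 and 17.9 FPKM in Resist replicates 1 to 5. Resist libraries lay on both sides of the naive ones, with a difference of 0.08 ± 0.14 (SE, n = 5 per group) and limma adjusted p = 0.731.

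The remaining mitosis genes did not pass the test. Genes of the spindle checkpoint had differences of -0.05 for Bub1b, -0.22 for Mad2l1 and -0.06 for Ttk, with limma adjusted p from 0.180 to 0.793. The mitotic kinases and the Aurkb partner Birc5 had differences of 0.04 for Aurka, -0.05 for Aurkb, -0.23 for Birc5 and 0.10 for Plk1, with limma adjusted p from 0.228 to 0.836. Cdc20 and Ube2c, which serve the ubiquitin ligase that ends mitosis, had differences of -0.23 for Cdc20 and 0.08 for Ube2c, with limma adjusted p from 0.153 to 0.693. Among kinetochore, kinesin and spindle genes the differences were 0.06 for Cenpe, 0.27 for Cenpf, -0.01 for Kif11, -0.12 for Kif20a, 0.07 for Kif23, -0.06 for Tpx2, 0.07 for Nusap1 and 0.06 for Prc1, with limma adjusted p from 0.167 to 0.975. As a class, the median log2 level against the naive mean was -0.23, 0.12, 0.05, -0.07 and 0.06 in Resist replicates 1 to 5 and -0.25 to 0.11 in naive libraries. The replication genes reached lower values in 4 of the same 5 Resist libraries, but the difference between the classes was not tested.

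Other genes of the same pathways, from lists chosen beside the 60, were read in the same fit. Of 37 other replication genes tested, 0 were called, and 2 were lower and 0 higher at adjusted p under 0.05 (2 of 37 beside 6.40% of all genes). Of the 37, 34 had a difference below 0, beside 4446 of all 10119 genes tested, and their median was -0.23. Without Resist replicate 5, 13 of the 37 were lower at adjusted p under 0.05 by limma, against 9.93% of all genes. That library was singled out by replication genes, so this count is no separate support. Of 49 other mitosis genes tested, 0 were called and 1 was lower at adjusted p under 0.05, against 6.40% of all genes, with a median of -0.06. Of 24 other cell cycle regulators tested, 2 were higher at adjusted p under 0.05, against 12.5% of all genes, and 1, Fbxw7, was called higher, against 5.25% of all genes. Fbxw7 encodes the subunit of a ubiquitin ligase that recognizes cyclin E and Myc. It was at 5.05 to 6.68 FPKM in naive and 9.51 to 14.5 FPKM in Resist libraries without overlap, a difference of 0.92 ± 0.10 (SE, n = 5 per group) with limma adjusted p = 0.000228. Of 13 p53 target genes tested, 0 were called, 1 was higher and 1 lower at adjusted p under 0.05, near the shares of 12.5% and 6.40% among all genes, with a median of -0.00.

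The limits of Resist vs. Naive lie in the libraries. The number of these 59 genes at adjusted p under 0.05 was 12, and it became 5, 4, 5, 9 and 7 without naive replicates 1 to 5 and 5, 9, 7, 5 and 20 without Resist replicates 1 to 5. Without Resist replicate 5 the share among all genes rose as well, from 18.9% to 26.7%. The number called was 2 when any other single library was left out and 8, of which 7 lower, without Resist replicate 5, against 8.30% of all genes called and 1.55% called lower.

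The other comparisons set groups of separate tables and batches side by side, so treatment and batch cannot be told apart and no test was made. Summed FPKM of a library was 481161 to 530961 in naive and Resist, 617494 to 761510 in Resist-Mac and 882276 to 1040436 in Naive-Mac libraries. Deposited levels thus also differ in scale between the tables. A gene was counted as apart when all 5 libraries of one group lay above all 5 of the other and the difference was over 1.5-fold. Over all genes, the signed difference, first group minus second, rose with transcript length (Spearman rho across genes 0.642 between Resist and Resist-Mac, 0.708 between naive and Naive-Mac and 0.607 between Resist-Mac and Naive-Mac, beside 0.155 for Resist vs. Naive). Shorter transcripts thus tended towards lower, including negative, differences. Each difference is therefore also given with the trend over the length and GC content of transcripts removed within each library. The length used was that of the longest transcript, such as 7557 bases for Mad2l1 and 4375 for Cdk1. Which transcripts were expressed was not known, so the correction can be wrong for a gene. Resist vs. Resist-Mac shares the Resist libraries with Resist vs. Naive, and Naive vs. Naive-Mac shares the naive libraries.

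**Figure D3:**
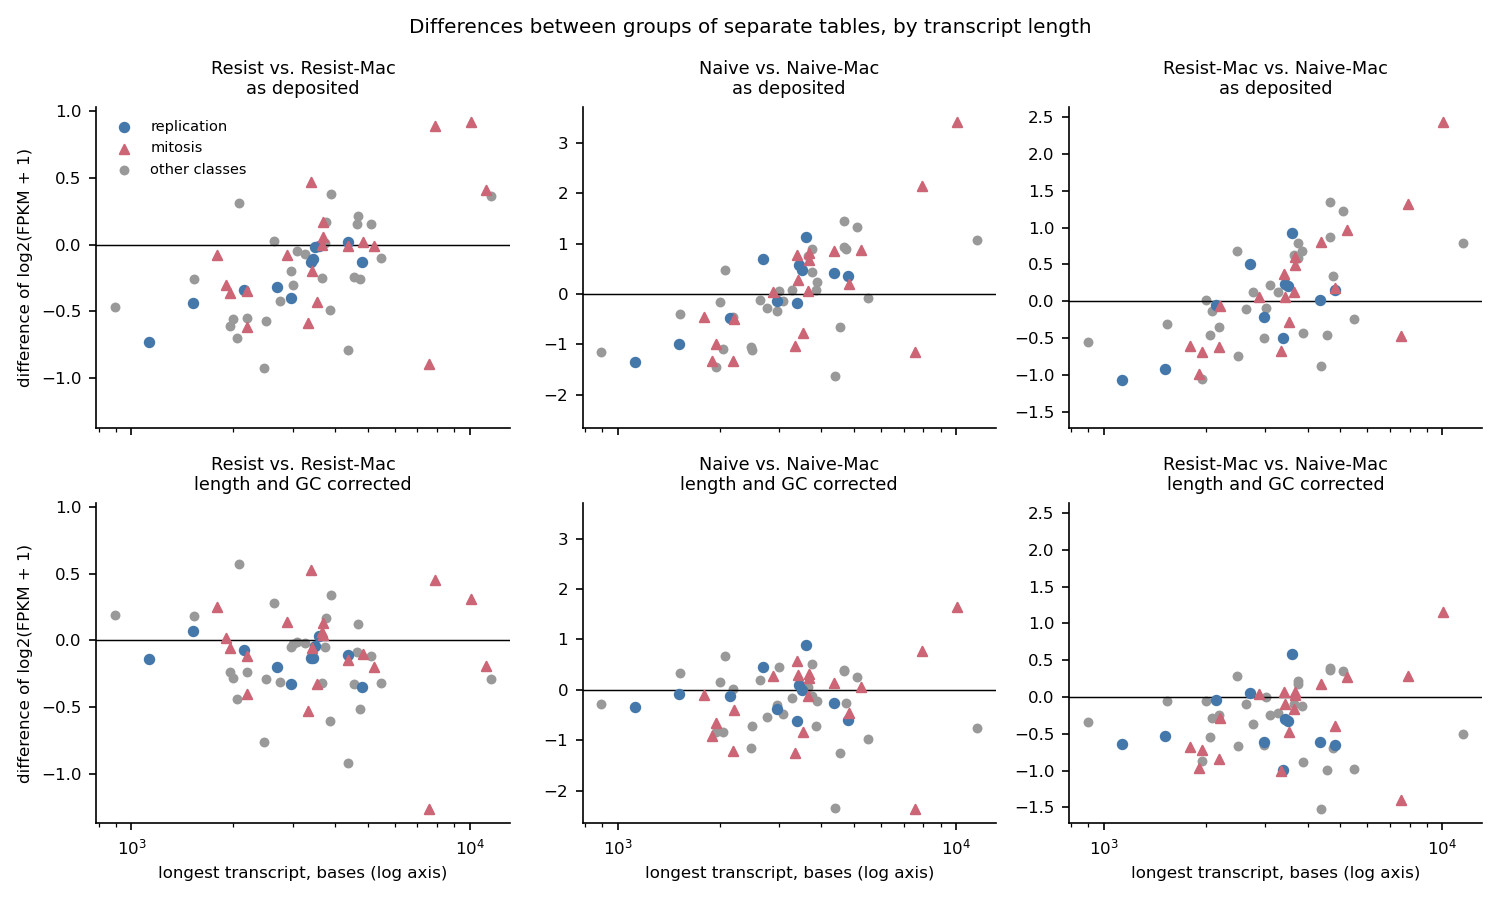
Difference of mean log2(FPKM + 1) (vertical axis) against the longest transcript of the gene (horizontal log axis, bases) for the 3 comparisons between tables, as deposited (top) and with the trend over length and GC content removed (bottom), 1 point per gene. In Naive vs. Naive-Mac, Mki67 and Cenpe, which have long transcripts, lie highest as deposited, at 3.42 and 2.14, and after correction they lie at 1.64 and 0.77.

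Between Resist and Resist-Mac tumors, 5 of 59 genes were apart, beside 17.3% of all genes. Mki67 and Cenpe were higher in Resist, beside 7.61% of all genes in this direction, and Cdk4, Cdkn2c and Mad2l1 were lower, beside 9.68%. After the length and GC correction, 0 were higher and Ccnd3, Cdkn2c and Mad2l1 were lower, beside 2.75% higher, 3.85% lower and 6.60% in either direction among all genes. The median of the 59 genes was -0.13 as deposited and -0.11 after correction, and that of the 11 replication genes was -0.13 in both. Cdkn2c was at 58.5, 56.7, 47.5, 59.4 and 53.01 FPKM in Resist-Mac replicates 1 to 5 and 33.4, 48.7, 29.6, 28.6 and 32.1 FPKM in Naive-Mac replicates 1 to 5. All Resist-Mac libraries were above all Resist libraries, at 22.9 to 31.9 FPKM, and the difference was -0.92 as deposited and -0.76 after correction. Mad2l1, a checkpoint gene with a close pseudogene, had differences of -0.89 and -1.26, and Cdk4 of -0.70 and -0.44. The count of 5 became 10 without Resist replicate 5 and 9 without Resist-Mac replicate 4. Leaving out a library makes non-overlap easier for any gene. The share of all genes was not computed for these counts, so the rise is not a result about these genes.

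Between naive and Naive-Mac tumors, 28 of 58 genes were apart, beside 56.5% of all genes, with 14 in each direction, beside 36.1% higher and 20.3% lower in naive. After correction 4 were higher (Cdkn1a, Cenpe, Mcm4 and Mki67) and 15 lower, beside 17.9% higher, 16.9% lower and 34.9% in either direction among all genes. The median of the 58 genes was 0.05 as deposited, -0.15 after correction and -0.21 after median-ratio scaling, so its sign depended on the setting. Over all genes the median was 0.23 as deposited. Mki67 was at 7.92, 4.92, 7.47, 7.22 and 8.63 FPKM in Resist-Mac replicates 1 to 5 and 0.46, 0.65, 0.23, 0.28 and 0.95 FPKM in Naive-Mac replicates 1 to 5, beside 12.4 to 19.5 FPKM in naive libraries. It was under 1 FPKM in all Naive-Mac libraries, the lowest of the 4 groups. Top2a was at 14.9, 15.1, 18.1, 11.7 and 13.9 FPKM in Resist-Mac replicates 1 to 5 and 3.34, 7.01, 8.59, 7.01 and 11.2 FPKM in Naive-Mac replicates 1 to 5. Its difference was 0.88 as deposited and 0.06 after correction, and that of Foxm1 was 1.45 and 0.37. Cdk1 was at 12.4, 16.6, 13.7, 8.0 and 10.8 FPKM in Resist-Mac replicates 1 to 5 and 22.6, 20.7, 22.1, 20.1 and 29.8 FPKM in Naive-Mac replicates 1 to 5. It lay below every Naive-Mac library in naive tumors, opposite to Mki67, with a difference of -1.62 as deposited and -2.34 after correction. Mki67 has a close pseudogene and a long transcript.

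Between Resist-Mac and Naive-Mac tumors, which share no library with Resist vs. Naive, 14 of 58 genes were apart, beside 40.1% of all genes, with 9 higher and 5 lower in Resist-Mac, beside 32.4% and 7.69% of all genes. After correction 2 were higher (Mcm4 and Mki67) and 11 lower, beside 10.4% higher, 11.9% lower and 22.3% in either direction among all genes. The median of the 58 genes was 0.03 as deposited, -0.28 after correction and -0.34 after median-ratio scaling, and that of the replication genes was 0.01, -0.53 and -0.40. Over all genes it was 0.34 as deposited. Pcna was at 137, 193, 149, 92.6 and 118 FPKM in Resist-Mac replicates 1 to 5 and 264, 222, 224, 249 and 328 FPKM in Naive-Mac replicates 1 to 5. Naive-Mac libraries were the higher ones without overlap, with a difference of -0.92 as deposited and -0.53 after correction. E2f2 was at 10.2, 4.93, 6.27, 8.54 and 8.08 FPKM in Resist-Mac replicates 1 to 5 and 4.36, 4.87, 5.30, 7.75 and 6.53 FPKM in Naive-Mac replicates 1 to 5. The groups overlapped, and its difference was 0.34 as deposited and -0.69 after correction. For Cdkn2c the differences were 0.68 and 0.29.

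The other genes in the -Mac groups are given by their deposited values, with the Resist-Mac minus Naive-Mac difference as deposited and then after the length and GC correction. Ccnd1 was at 88.4, 71.3, 80.4, 84.1 and 71.1 FPKM in Resist-Mac replicates 1 to 5 and 37.1, 46.8, 48.8, 53.8 and 40.6 FPKM in Naive-Mac replicates 1 to 5. Naive-Mac libraries were all below the Resist-Mac ones as deposited, with a difference of 0.79 that became 0.22 after correction. Ccne1 was at 10.1, 14.8, 13.3, 9.97 and 9.76 FPKM in Resist-Mac replicates 1 to 5 and 8.58, 8.77, 13.1, 14.1 and 13.5 FPKM in Naive-Mac replicates 1 to 5. These ranges overlapped, and the differences were 0.01 and -0.05. Ccnd2 was at 0.13, 0, 0, 0.14 and 0.25 FPKM in Resist-Mac replicates 1 to 5 and 0, 0, 0.05, 0.03 and 0.02 FPKM in Naive-Mac replicates 1 to 5, near 0 as in the other groups. Ccnb1 was at 14.5, 21.9, 21.0, 14.9 and 18.9 FPKM in Resist-Mac replicates 1 to 5 and 20.5, 31.5, 33.0, 26.3 and 48.1 FPKM in Naive-Mac replicates 1 to 5. Naive-Mac reached the higher values and the groups overlapped, with differences of -0.74 and -0.67. Mcm2 was at 28.8, 29.4, 33.2, 28.2 and 31.3 FPKM in Resist-Mac replicates 1 to 5 and 17.6, 22.9, 31.8, 30.9 and 30.8 FPKM in Naive-Mac replicates 1 to 5. Mcm5 was at 31.6, 37.2, 35.6, 21.4 and 32.4 FPKM in Resist-Mac replicates 1 to 5 and 30.5, 37.4, 45.2, 52.2 and 63.5 FPKM in Naive-Mac replicates 1 to 5. In both helicase genes the groups overlapped, with differences of 0.20 and -0.32 for Mcm2 and of -0.50 and -0.99 for Mcm5. Cdkn1a was at 41.8, 43.9, 63.0, 68.2 and 56.3 FPKM in Resist-Mac replicates 1 to 5 and 49.6, 39.7, 81.2, 83.6 and 53.8 FPKM in Naive-Mac replicates 1 to 5. Cdkn1b was at 42.0, 58.4, 43.5, 37.8 and 34.2 FPKM in Resist-Mac replicates 1 to 5 and 40.7, 64.3, 63.5, 56.0 and 74.5 FPKM in Naive-Mac replicates 1 to 5. Both inhibitors overlapped between the groups, with differences of -0.14 and -0.28 for Cdkn1a and of -0.46 and -0.99 for Cdkn1b. Cdkn2a was at 238, 226, 208, 233 and 222 FPKM in Resist-Mac replicates 1 to 5 and 409, 323, 291, 328 and 327 FPKM in Naive-Mac replicates 1 to 5. All its Naive-Mac libraries were above all Resist-Mac libraries as deposited, with differences of -0.56 and -0.34. E2f1 was at 9.62, 8.70, 11.7, 9.97 and 11.8 FPKM in Resist-Mac replicates 1 to 5 and 7.83, 8.55, 10.3, 9.93 and 10.7 FPKM in Naive-Mac replicates 1 to 5. Foxm1 was at 3.71, 3.55, 4.97, 4.88 and 5.15 FPKM in Resist-Mac replicates 1 to 5 and 0.67, 1.07, 1.27, 1.16 and 1.55 FPKM in Naive-Mac replicates 1 to 5. Rb1 was at 3.85, 1.91, 2.93, 4.00 and 4.20 FPKM in Resist-Mac replicates 1 to 5 and 0.46, 1.57, 1.92, 1.76 and 1.31 FPKM in Naive-Mac replicates 1 to 5. For Foxm1 the Naive-Mac libraries were all below the Resist-Mac ones, as deposited, whereas the ranges of E2f1 and Rb1 overlapped. The difference of Foxm1 was 1.35 as deposited and 0.40 after correction, that of E2f1 0.12 and -0.37, and that of Rb1 0.87 and 0.36. After correction 22.3% of all genes were apart between these groups, and 0 of the 6 genes of transcriptional control were. Of the 7 G1 cyclins and kinases compared, 0 were apart.

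**Figure D4:**
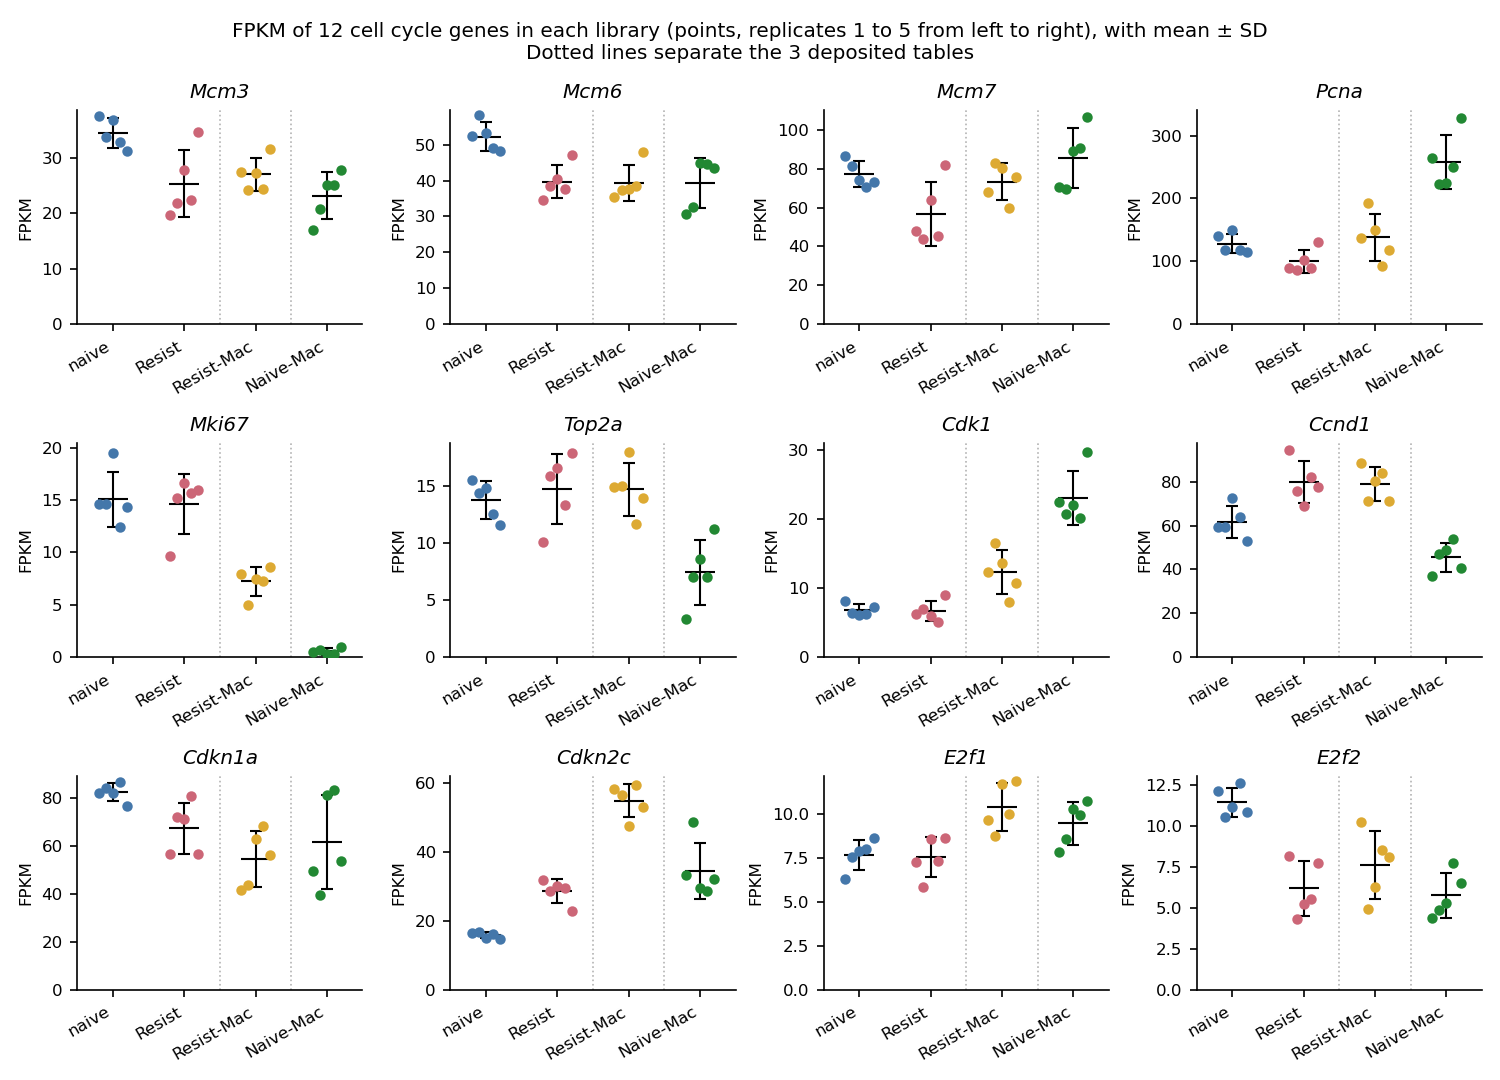
FPKM (vertical axis) of 12 genes in each library of the 4 groups (horizontal axis), 1 point per library, with the mean and SD, n = 5. Dotted lines separate the 3 tables, between which levels are confounded with batch. Cdkn2c is at 14.7 to 16.8 FPKM in naive and 22.9 to 31.9 in Resist libraries, and E2f2 at 10.5 to 12.6 and 4.28 to 8.13.

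Across the naive libraries the highest mean levels on the FPKM scale were those of Cdk4, Cdkn2a and Pcna, and the lowest were those of Ccnd2 and Cenpf. The median coefficient of variation of these genes was 11.4% in naive, 18.4% in Resist, 20.4% in Resist-Mac and 24.8% in Naive-Mac libraries, beside 9.54%, 12.9%, 18.4% and 19.7% for all genes. For 12 of the 60, Ccnb1, Cdc20, Cdc6, Cenpe, Mad2l1, Mcm4, Mcm7, Mki67, Pcna, Plk1, Rrm2 and Ube2c, a pseudogene matched the transcript with an identity of 0.9 or more. The match spanned 0.8 or more of the pseudogene, and the share of the transcript it spanned was not measured. Reads of these genes could have been shared with the pseudogene.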

How the data were processed

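The authors sequenced RNA of sorted tumor cells with paired ends on a BGISEQ platform and deposited 3 tables. The naive and Resist table is on the log2(FPKM + 1) scale as deposited. It was converted to linear FPKM, after which 100% of its values had 2 decimals. The tables of the -Mac groups hold linear FPKM as deposited. The submitters' processing notes name Bowtie2 and the mm9 build without a role, and the quantification tool is not given in the sources used here. As in the study's methods, the 752 genes marked BGI_novel, which held 7.47 to 8.97% of the FPKM of a library, were left out. Entrez identifiers were matched to symbols in a RefSeq table of GRCm38.p6, with 16613 of 16733, 14053 of 14077 and 15827 of 15867 found. Libraries were grouped by their GEO labels. Within a group, libraries correlated at 0.9755 to 0.9960.

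Resist vs. Naive was tested with limma 3.58.1 in R 4.3.3 on log2(FPKM + 1), with a variance prior that follows the mean level and Benjamini-Hochberg adjustment over every gene whose mean was 1 FPKM or more. The study used NOISeq, and a noise-distribution probability over 0.8, computed after that method, served as an alternative. The 60 members, their classes and the other lists were chosen with earlier results of these data known. All members are accounted for. Values per library are given for Mki67, Top2a, Cdk1, Ccnb1, Mcm2, Mcm5, Pcna, Ccnd1, Ccnd2, Ccne1, Cdkn1a, Cdkn1b, Cdkn2a, Cdkn2c, E2f1, Foxm1, Rb1 and each member called, and those of Cdt1, Mcm3, Mcm6, Mcm7 and Rrm2 were added after their values were seen. Outside the members, the rule named up to 3 called genes per list and direction with the largest change.

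Alternatives were a pseudocount of 0.1, other filters, median-ratio scaling, other call thresholds, a constant variance prior, a replicate block, a joint fit of the 4 groups, and leaving out each library. In a further one, a spline with 4 degrees of freedom over the length and GC content of the longest GENCODE M21 transcript was removed from each library. Pseudogenes were aligned with minimap2 2.31. The fit was tested on simulated data. Other software was numpy 2.4.6, pandas 2.3.3 and matplotlib 3.10.9 under Python 3.11.15. The other cell types of the study were not analysed here.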

Additional observations from a re-analysis of the deposited data

Results flagged for a closer look

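Over the groups of 5 libraries, 231 combinations of gene and group were checked for a library far from the other 4, by Dixon's test at the 95% level, and 13 were found, where chance alone gives about 11.6. Naive libraries had 0 of them.

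Resist replicate 5 was the far library for 3 genes. It held Ccne1, the E-type cyclin, at 10.7 FPKM against 6.15 to 7.18 in the other Resist libraries, Mad2l1 at 13.1 against 9.78 to 10.4 FPKM, and Rb1 at 3.57 FPKM, below the other 4 at 3.97 to 4.12. Resist replicate 1 was low for Mki67, at 9.63 against 15.2 to 16.6 FPKM, and for Cenpf, at 0.90 against 1.40 to 1.62 FPKM. Resist replicate 2 was high for Ube2c, at 30.7 against 18.8 to 21.5 FPKM.

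In Resist-Mac tumors, replicate 4 was low for Cdkn3, at 3.65 against 8.58 to 11.5 FPKM, and for Mybl2, at 4.50 against 8.25 to 10.4 FPKM. Replicate 5 was high for the helicase gene Mcm6, at 48.0 against 35.3 to 38.4 FPKM, and replicate 2 was high for Ccne2, at 9.79 against 5.83 to 6.13 FPKM. In Naive-Mac tumors, replicate 5 was high for Cdk1, at 29.8 against 20.1 to 22.6 FPKM, and for Mad2l1, at 44.1 against 24.9 to 28.2 FPKM, and replicate 2 was high for Cdkn2c, at 48.7 against 28.6 to 33.4 FPKM.

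Of 116 checks for a gene whose libraries all moved one way in one comparison and the opposite way in another that shares none of them, 0 were found.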

How the results depend on the processing

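Cdkn2c and E2f2 were the 2 genes called in Resist vs. Naive with a pseudocount of 0.1, without a filter, with a mean of at least 5 FPKM, with median-ratio scaling, with a constant variance prior, with all 4 groups in one fit and when any library but Resist replicate 5 was left out. Without a fold threshold 12 were called, 2 higher and 10 lower, and with a fold change over 2, 0 were called in either direction. The noise-distribution probability called 1, Cdkn2c, with 0 lower, and the length and GC correction called 3, with 2 lower. Leaving out 1 library gave 2 to 8 calls, of which 1 to 7 were lower and 1 higher. The number at adjusted p under 0.05 was 5 without a filter, 7 with all groups in one fit and 4 to 20 when 1 library was left out. Replication genes lower at adjusted p under 0.05 were 2 without a filter, 3 with a constant variance prior and 1 to 9 when 1 library was left out. Calls over all genes were 643, and 392 with a mean of at least 5 FPKM, 219 with a fold change over 2, 363 by the noise-distribution probability and 1915 without a fold threshold.

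Naive and Resist libraries of the same replicate number had deviations that correlated at -0.16, -0.03, -0.11, -0.07 and -0.05. Replicate numbers thus gave no sign of pairing, and pairings other than by number were not tested. With the replicate block, 2 genes were called, 8 were at adjusted p under 0.05 and 3 replication genes were lower at that level.

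With a mean of at least 5 FPKM, the median of all members was -0.19 for Resist vs. Naive, -0.26 between Resist and Resist-Mac and -0.13 between naive and Naive-Mac. After the length and GC correction, 3 members were apart in Resist vs. Resist-Mac, and the median was -0.15 in Naive vs. Naive-Mac and -0.28 in Resist-Mac vs. Naive-Mac. After median-ratio scaling the last 2 were -0.21 and -0.34. Leaving out 1 library gave medians of -0.13 to -0.06 for Resist vs. Naive, -0.27 to -0.08 between Resist and Resist-Mac, -0.04 to 0.04 between naive and Naive-Mac and -0.07 to 0.07 between Resist-Mac and Naive-Mac, and 5 to 10, 28 to 31 and 14 to 18 members apart in the latter 3. The share of all genes apart was not computed with a library left out, which makes non-overlap easier for any gene. The cause of the changes in medians and counts was not tested. The medians of the last 2 comparisons thus changed sign with the setting, whereas the difference of Cdkn2c stayed above 0 and that of E2f2 below 0 in Resist vs. Naive under all 20 settings that gave one. Depth is unknown, so counting error could not be given, and members under 1 FPKM, such as Ccnd2, could not be compared.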
